A study of Mus musculus with 3 samples.

Results

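The genes described here build or regulate the contractile actin cytoskeleton, or are widely used as readouts of the transcription factor SRF and of the coactivators YAP and TAZ. The 9 genes were Acta2, Tagln, Cnn1, Cnn2, Tpm1, Tpm2, Myl9, Cyr61 and Ctgf. They were chosen from values measured on these same arrays, so their levels and differences are given as a description, without a test. All probes carrying one of these symbols were taken: 15 of the 25697 probes on the array, for 8 of the 9 genes and of 17836 gene symbols in all. Myl9, a regulatory light chain of non-muscle and smooth muscle myosin, had no probe under its symbol or any RefSeq synonym. Probes with detection p-values under 0.05 on 2 or more arrays were analysed further, a condition that 12 member probes of 7 genes met. Among the other 3, the 1 probe of Cnn1 and 2 of the 3 probes of Tpm2 were detected on no array.

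The study measured total RNA from a mouse embryonic stem (ES) cell line of the 129 strain background that carries a Sox17-GFP reporter, on 1-colour Illumina bead arrays. Each of 3 groups had 2 arrays: cells left undifferentiated, Sox17-GFP(+) cells obtained with Activin, and Sox17-GFP(+) cells obtained with Nodal. Activin A, a recombinant human protein, was given at 50 ng/ml and recombinant mouse Nodal at 1000 ng/ml. The source names place these samples at day 7, while the protocol gives a range of 6 to 8 days. All cells derive from the same reporter line, and Sox17 is a transcription factor of definitive endoderm, the germ layer that forms gut, liver and pancreas. Treated cultures were kept in medium with 5% fetal bovine serum. Maintenance medium held 15% serum and the self-renewal factor LIF, over gelatin and mouse embryonic fibroblast (MEF) feeders. No untreated cells of the same day were among the samples, so effects of the ligand, the serum, the loss of LIF and feeders, the time and the selection for the reporter cannot be told apart. The sources do not state if arrays of 1 group were separate cultures, so p-values measure the spread between these arrays, which may be technical. The design text calls the first sample SOX17-GFP(+) ES cells where the title says undifferentiated, and the title was followed. The sample descriptions state 2, 3 and 4 replicates for Activin, Nodal and undifferentiated cells, while the design text gives 2 and the signal table holds 2 arrays for each.

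Actin filaments slide against bundles of myosin II to produce force. Tropomyosins, calponins and transgelin lie along the filament and modulate it, and phosphorylation of the myosin light chain switches the contraction on. Free actin monomers hold the SRF cofactors of the MRTF family in the cytoplasm, so that filament assembly releases them to activate cytoskeletal genes through the CArG box. Tension and spreading also let YAP and TAZ enter the nucleus, where they bind TEAD factors on targets such as Cyr61 and Ctgf. Both routes respond to serum and to the stiffness of the substrate, and TGF-beta family ligands such as Activin and Nodal act through Smad proteins on many of the same genes.

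Promoters of 4 members are shown because 3 of them (Cnn2, Tpm1 and Cyr61) belong to the genes with higher signal after both treatments, and the last, Acta2, does not. Tpm2, also higher after both but by less than 2-fold, is not printed, and its promoter held neither motif marked below. Each run covers 250 bases before to 50 after the RefSeq start (GRCm38.p6), read 5′ to 3′ on the strand of the gene. Capitals mark the CArG box, the SRF element, searched as its exact consensus with no mismatch, or the TEAD motif GGAATG, read on both strands (CATTCC on the other strand). Cnn2 lies at chr10:79988350-79988649 on the plus strand, with a CArG box that begins 56 bases before the start. Tpm1 lies at chr9:67049164-67049463 on the minus strand, with the TEAD motif 56 bases before the start of this RefSeq transcript. Cyr61 lies at chr3:145649936-145650235 on the minus strand, with the TEAD motif in reverse 103 bases before the start. Acta2 lies at chr19:34255324-34255623 on the minus strand, with the TEAD motif 146 bases before the start.
Cnn2: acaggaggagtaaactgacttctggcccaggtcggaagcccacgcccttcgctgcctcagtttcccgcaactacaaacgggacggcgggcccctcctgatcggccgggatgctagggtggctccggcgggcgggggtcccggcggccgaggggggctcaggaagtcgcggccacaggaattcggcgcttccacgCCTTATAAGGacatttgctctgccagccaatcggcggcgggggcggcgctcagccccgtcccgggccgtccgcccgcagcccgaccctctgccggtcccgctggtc
Tpm1: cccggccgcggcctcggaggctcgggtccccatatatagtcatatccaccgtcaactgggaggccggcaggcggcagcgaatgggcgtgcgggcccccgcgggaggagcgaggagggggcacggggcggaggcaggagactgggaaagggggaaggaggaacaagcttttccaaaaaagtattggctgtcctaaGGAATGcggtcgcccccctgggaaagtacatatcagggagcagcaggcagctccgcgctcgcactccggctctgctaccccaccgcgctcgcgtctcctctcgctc
Cyr61: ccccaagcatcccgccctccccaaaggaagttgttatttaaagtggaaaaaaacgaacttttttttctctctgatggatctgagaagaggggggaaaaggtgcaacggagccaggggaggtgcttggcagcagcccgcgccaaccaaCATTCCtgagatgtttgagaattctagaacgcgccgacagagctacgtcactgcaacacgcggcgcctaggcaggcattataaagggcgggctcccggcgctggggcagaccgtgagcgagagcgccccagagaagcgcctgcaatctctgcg
Acta2: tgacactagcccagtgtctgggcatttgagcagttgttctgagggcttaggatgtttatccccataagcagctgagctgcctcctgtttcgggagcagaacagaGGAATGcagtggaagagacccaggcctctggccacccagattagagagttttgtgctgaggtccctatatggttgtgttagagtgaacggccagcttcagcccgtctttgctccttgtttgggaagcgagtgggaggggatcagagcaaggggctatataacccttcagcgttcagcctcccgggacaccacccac
Over all 32851 RefSeq promoters of this length, 1.63% held an exact CArG box and 14.7% held the TEAD motif. Of 7 members with a promoter in the table, Myl9 also held an exact CArG box, 161 bases before its start, and neither exact motif was in the windows of Cnn1 and Tpm2. Tagln and Ctgf had no promoter among these sequences, so they were not searched for either motif. The Acta2 and Tpm1 windows each held 2 runs that differ from the CArG consensus by 1 letter, and Myl9 held 1 such run; 19.9% of all promoters held at least 1. Those runs are left in lower case, and functional SRF elements of Acta2 are known that differ from the consensus. A match is a run of letters and not a measured site.

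Acta2 encodes smooth muscle alpha-actin, a contractile actin of smooth muscle and myofibroblasts that TGF-beta family signals are known to raise. Probe ILMN_2923445 had log2 normalized signals of 9.22 and 9.29 on the undifferentiated arrays, 9.19 and 9.27 after Activin, and 8.65 and 8.59 after Nodal. Probe ILMN_2710353 read 9.03 and 9.15 in undifferentiated cells, 9.05 and 9.39 after Activin, and 8.68 and 8.59 after Nodal. Probe ILMN_2710354 gave 9.39 and 9.58, then 9.37 and 9.66, then 9.09 and 8.88 in the same order. On all 3 probes the Activin and undifferentiated arrays overlapped, and both Nodal arrays lay below the other 4. The log2 difference of Nodal from undifferentiated cells was -0.64 for ILMN_2923445 (standard error, SE, 0.0887), -0.50 for ILMN_2710354 (SE 0.128) and -0.45 for ILMN_2710353 (SE 0.122). Activin differed from undifferentiated cells by -0.02, 0.03 and 0.14 on these probes, values whose sign turned under some other settings. Before normalization, both Activin arrays lay above both undifferentiated arrays on all 3 probes. The mean log2 differences there were 0.21, 0.27 and 0.37 for Activin and -0.34, -0.23 and -0.17 for Nodal, in the same order. Between the treatments, the Nodal arrays differed from the Activin arrays by -0.61 to -0.53.

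A further probe, ILMN_2693895, is filed under 0610041G09Rik, an older RefSeq name of Acta2, and so falls outside the symbol rule. Its log2 signals were 11.80 and 11.68 in undifferentiated cells, 11.97 and 12.08 after Activin, and 11.51 and 11.45 after Nodal. Here the 3 groups did not overlap, with Activin highest and Nodal lowest. The log2 difference between Nodal and Activin on this probe was -0.55 (SE 0.0938), within the range of the 3 probes named by the rule.

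Tagln (transgelin, also SM22-alpha) encodes an actin-bundling protein of smooth muscle whose promoter is a standard SRF reporter. Its probe ILMN_1243652 had log2 signals of 6.33 and 6.27 in undifferentiated cells, 6.01 and 5.98 after Activin, and 5.30 and 5.20 after Nodal. The groups did not overlap, with undifferentiated cells highest and Nodal lowest. Nodal differed from undifferentiated cells by a log2 value of -1.05 (SE 0.0888), a 2.07-fold lower signal, Activin from undifferentiated cells by -0.30 and Nodal from Activin by -0.75. All these signals lay near background, with uncorrected intensities of 62.4 to 99.0 and detection p-values of 0.0163 and 0.0251 on the Nodal arrays. Before normalization the Activin and undifferentiated arrays gave a mean log2 difference of -0.00355 for Tagln. The Nodal difference ranged from -1.11 to -0.65 over the settings tried.

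Calponins bind actin and tropomyosin and slow the myosin motor. Cnn1, the smooth muscle calponin, was not detected: log2 signals of its probe ILMN_1221148 lay between 4.45 and 4.66 on the 6 arrays, and no fold is given. Cnn2, the calponin of non-muscle cells that is linked to substrate tension, was higher after both treatments. Probe ILMN_1226666 had log2 signals of 6.84 and 7.09 in undifferentiated cells, 9.24 and 9.06 after Activin, and 8.89 and 8.92 after Nodal. Probe ILMN_2596369 read 5.56 and 5.39, then 7.86 and 8.13, then 7.65 and 7.83 in that order. All 4 treated arrays were far above the 2 undifferentiated ones on both probes. For Activin the log2 difference was 2.18 (SE 0.112) on the first probe and 2.52 (SE 0.120) on the second, 4.53-fold and 5.72-fold higher signal. For Nodal the same probes gave 1.94 and 2.26, or 3.84-fold and 4.79-fold. ILMN_2596369 was near background in undifferentiated cells (uncorrected 70.4 and 63.6, detection p-values 0.01 and 0.0201), and with an offset of 50 its differences were 1.88 and 1.66. Nodal arrays differed from Activin arrays by log2 values of -0.24 and -0.26.

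Tropomyosins are coiled-coil dimers that run along the actin filament and set which myosins and severing proteins reach it. Tpm1 probe ILMN_3007072 had log2 signals of 10.21 and 10.12 in undifferentiated cells, 12.70 and 12.72 after Activin, and 12.83 and 12.71 after Nodal. The 4 treated arrays lay close together and well above both others, and the treatments overlapped. The log2 difference was 2.55 (SE 0.0917) for Activin and 2.61 for Nodal, 5.85-fold and 6.11-fold. Tpm2, the beta-tropomyosin of muscle and fibroblasts, had 1 detected probe, ILMN_2487170, with 8.62 and 8.50 in undifferentiated cells, 9.32 and 9.56 after Activin, and 9.18 and 9.29 after Nodal. Its groups did not overlap, with differences of 0.88 (SE 0.108) for Activin and 0.68 for Nodal, 1.84-fold and 1.60-fold. The undetected Tpm2 probe ILMN_2482209 read 4.37 and 4.38 in undifferentiated cells against 4.81 to 4.89 on the treated arrays. The other undetected one, ILMN_2787172, read 4.37 to 4.51 over the 6 arrays. Which Tpm1 or Tpm2 transcripts these probes reach is not given in the sources used here.

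**Figure D1:**
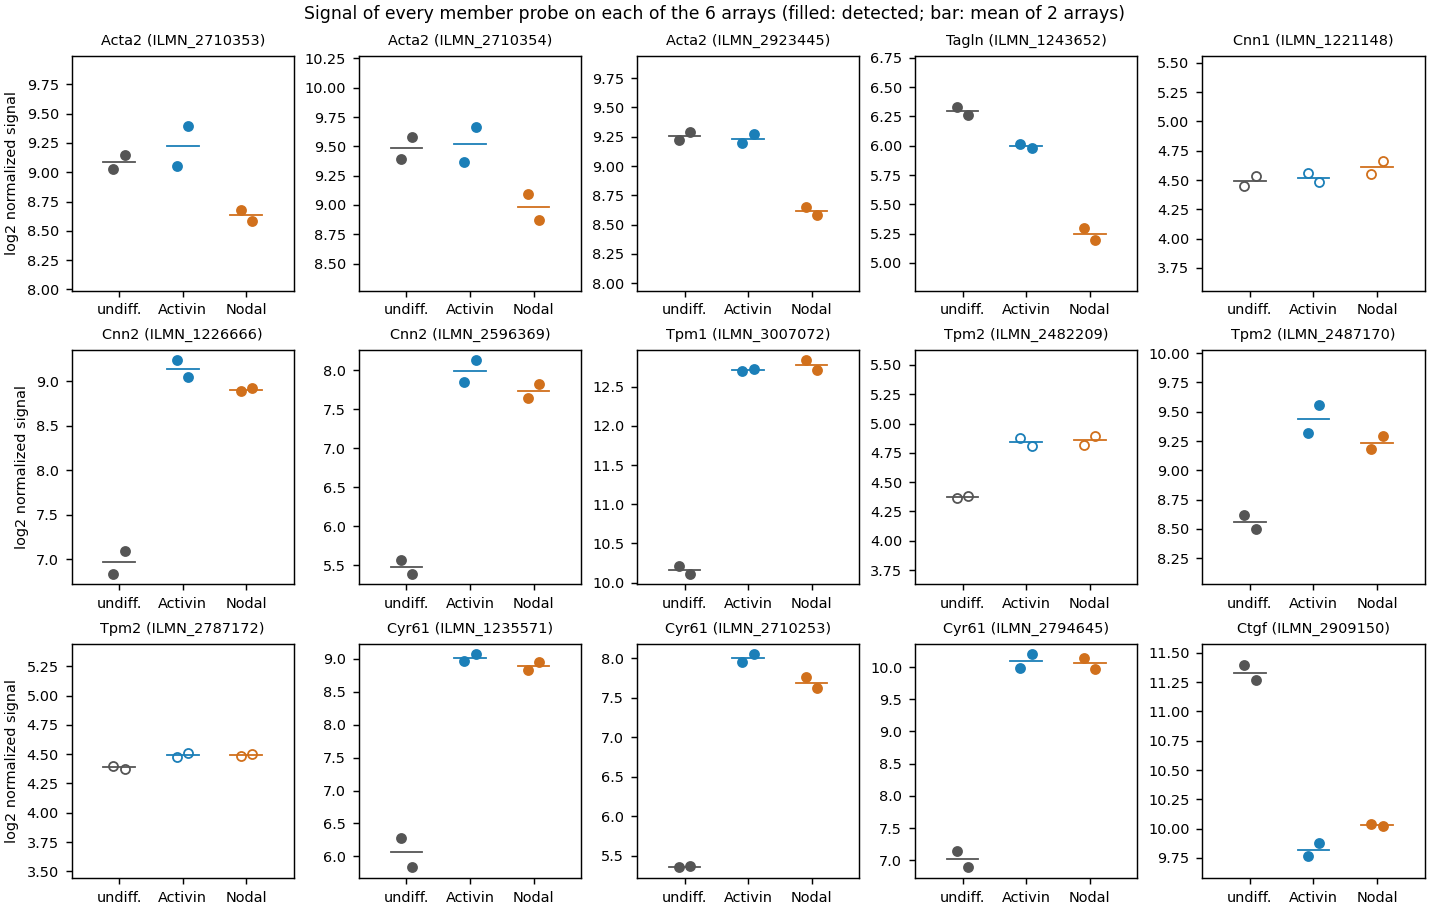
Log2 normalized signal (y axis, a separate scale for each panel) of the 15 member probes in undifferentiated, Activin and Nodal samples (x axis). Each point is 1 array, filled where the probe was detected, and bars are means of 2 arrays; Cnn2, Tpm1 and Cyr61 sit higher on all 4 treated arrays, Ctgf sits lower on them, and Acta2 and Tagln are lowest after Nodal.

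Cyr61 and Ctgf, now named Ccn1 and Ccn2, encode secreted matricellular proteins of the CCN family that bind integrins and growth factors. Both are textbook YAP and TEAD targets, and here they differed in opposite directions. Cyr61 probe ILMN_2794645 had log2 signals of 7.15 and 6.89 in undifferentiated cells, 9.98 and 10.20 after Activin, and 10.14 and 9.97 after Nodal. Probe ILMN_1235571 read 6.29 and 5.84, then 8.96 and 9.07, then 8.83 and 8.95, and probe ILMN_2710253 read 5.36 and 5.37, then 7.95 and 8.05, then 7.76 and 7.62. On each probe all 4 treated arrays were above both undifferentiated arrays. The log2 difference for Activin was 3.07 (SE 0.122), 2.95 (SE 0.140) and 2.64 (SE 0.0931), or 8.40-fold, 7.73-fold and 6.22-fold. For Nodal it was 3.04, 2.82 and 2.33, or 8.20-fold, 7.08-fold and 5.01-fold. ILMN_2710253 was near background in undifferentiated cells (uncorrected 65.0 and 63.2, detection p-values 0.0201 and 0.0213), and with an offset of 50 its differences were 1.95 and 1.68. Nodal and Activin arrays overlapped on ILMN_2794645 and were apart by log2 values of -0.13 and -0.31 on the others.

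Ctgf probe ILMN_2909150 had log2 signals of 11.39 and 11.26 in undifferentiated cells, 9.76 and 9.87 after Activin, and 10.04 and 10.02 after Nodal. Undifferentiated cells were highest and Activin lowest, without overlap. The log2 difference was -1.51 (SE 0.0931) for Activin and -1.30 for Nodal, which is 2.85-fold and 2.46-fold lower signal. The authors' deposited averages, which hold no spread, gave Ctgf values of 2629, 958 and 1104 for undifferentiated, Activin and Nodal, and for Cyr61 probe ILMN_2794645 values of 132, 1150 and 1122.

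The summed signal of fibroblast markers was also highest on the undifferentiated arrays, though its members differed in direction. Of 16 fibroblast genes on the array, meant to mark MEF feeders, 11 were detected on both undifferentiated arrays, 5 on both Activin arrays and 6 on both Nodal arrays. Their summed signal was 4057 to 4120 in undifferentiated cells, 1619 to 1702 after Activin and 1424 to 1435 after Nodal. Timp1 made up the largest part of the undifferentiated sum, at a mean log2 signal of 11.04, against 8.09 after Activin and 8.22 after Nodal. With limma, 9 of the 12 tested fibroblast genes fell and 2 rose after Activin, beside 36.9% and 36.2% of all 10222 genes. After Nodal 9 fell and 3 rose, beside 37.1% and 36.5%. Mgp and S100a4 had log2 signals of 7.26 to 7.55 in undifferentiated cells and were detected on no treated array, and Thy1, at 8.85 and 8.89, was detected on 1 treated array. Twist1 and Col5a1 went the other way, Twist1 rising by 1.32 and 1.20 and Col5a1 by 0.78 and 0.44 after Activin and Nodal, and Col5a1 was at log2 signals of 9.73 to 10.18 on the treated arrays, most of their sums. Pdgfrb, detected on no undifferentiated array, passed after Nodal at a difference of 0.35. The fibroblast markers Lum, Postn, Fap and Col1a2 were detected on no array. The part of feeder cells in the Ctgf, Acta2 and Tagln levels was not tested, and in bulk RNA fewer cells of a type and less RNA per cell cannot be told apart.

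Markers of muscle and of other cell types were read in the same way. Of 8 smooth muscle genes, Myh11, Lmod1, Mylk and Synpo2 were detected on no array, and the summed signal was 656.2 to 690.2 in undifferentiated cells, 428.2 to 450.3 after Activin and 476.1 to 488 after Nodal. The 4 tested genes split: Actg2 and Des fell and Myocd and Smtn rose in both comparisons, beside the shares of all genes given above. For Smtn, 1 other probe disagreed. Cardiac muscle genes summed to 213.9 to 215.3 in undifferentiated cells, 1132 to 1146 after Activin and 1156 to 1191 after Nodal. On the treated arrays Tnnc1 made up most of that sum, at log2 signals of 9.79 to 9.92 against 5.81 and 5.92 in undifferentiated cells, where Myl7 (6.85 and 6.87) was brighter; Nppa was detected on no array, and Myh6, Myh7 and Nkx2-5 on 1 array each. Endothelial genes summed to 286.9 to 304.7, then 63.18 to 87.23, then 78.59 to 80.63, and macrophage genes to 1495 to 1606, then 87.86 to 88.98, then 63.72 to 69.44, in that order. Pecam1, at a mean log2 signal of 7.78, made up most of the endothelial sum in undifferentiated cells. The endothelial genes Cdh5, Kdr, Tie1 and Emcn were detected on no array. Lyz2, at a mean log2 signal of 10.15, made up most of the macrophage sum in undifferentiated cells. All 5 tested macrophage genes fell in both comparisons, beside the shares of all genes given above. Csf1r, Ptprc and Fcer1g of that list were detected on no array. Parietal endoderm sums ran the other way, at 1642 to 1698, 4889 to 4951 and 6322 to 6409. Sparc made up most of each sum, at mean log2 signals of 10.56, 12.13 and 12.48. Lamb1 and Pth1r also rose in both comparisons, while Thbd fell in both and was detected on no treated array. Plat was detected on no array. Whether any of these cells contributed to the member signals was not tested. ES cell genes summed to 27020 to 27320 in undifferentiated cells against 421.8 to 603.1 on the treated arrays, and definitive endoderm genes, which include the reporter gene Sox17, to 135.9 to 143.4 against 11430 to 13610.

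**Figure D2:**
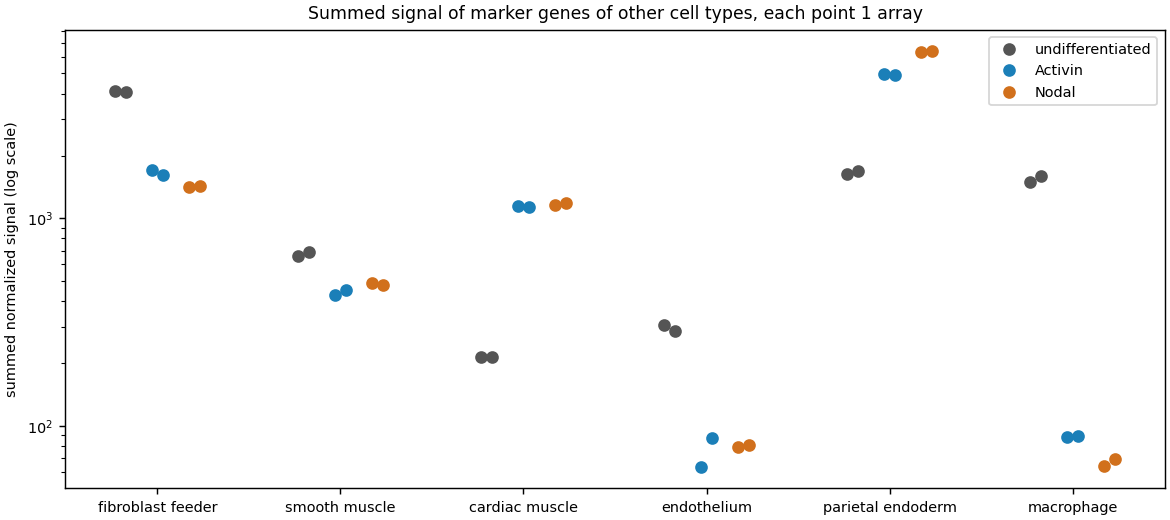
Summed normalized signal (y axis, log scale) of 6 marker lists of other cell types (x axis), each point 1 array. Fibroblast feeder, smooth muscle, endothelium and macrophage sums are highest on the 2 undifferentiated arrays, and cardiac muscle and parietal endoderm sums are higher on the 4 treated arrays.

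Over the 12 detected member probes, Activin gave a higher mean than undifferentiated cells on 9 probes and a lower one on 3. Of these, 6 probes of 3 genes were at least 2-fold higher and 1 probe at least 2-fold lower, beside 13.6% and 12.4% of all 14050 tested probes. The arrays of both groups did not overlap for 7 probes with higher and 2 with lower signal, against 41% and 44% of all probes. With Nodal, 7 probes were higher and 5 lower. At least 2-fold apart were 6 probes of 3 genes that were higher and 2 that were lower, beside 13.9% and 13% of all probes. No member probe overlapped between Nodal and undifferentiated arrays, 7 being higher and 5 lower, against 41.6% and 44.6% of all probes. The median log2 difference over member probes was 1.53 for Activin and 1.31 for Nodal, and over all tested probes -0.03 for each. These contrasts share the undifferentiated arrays, and because the genes were chosen on such values nothing is read from their counts.

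Nodal against Activin gave smaller differences, 2 probes higher and 10 lower, with none 2-fold apart, beside 0.135% of all probes higher and 0.0569% lower. The arrays did not overlap for 1 probe that was higher after Nodal (Ctgf) and for 9 that were lower, where 21.7% and 22.8% of all probes were so. The median log2 difference was -0.25 over the member probes and -0.003 over all probes. Tagln and the Acta2 probes had the largest sizes among them, -0.75 and -0.61 to -0.53.

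**Figure D3:**
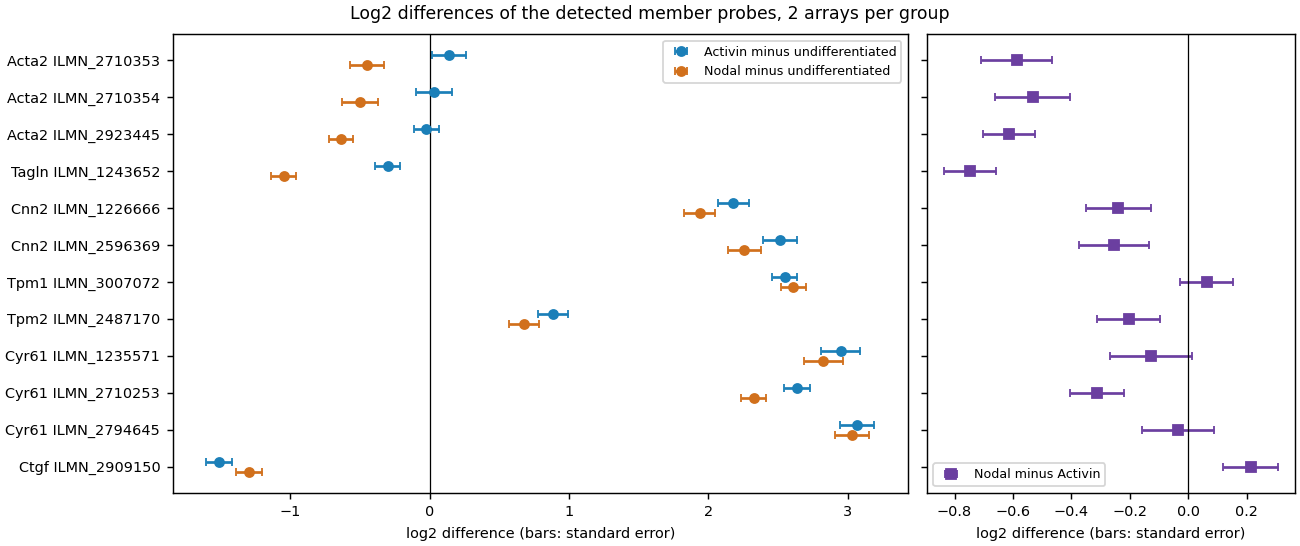
Log2 differences (x axis) of the 12 detected member probes (rows), with Activin and Nodal each minus undifferentiated cells on the left and Nodal minus Activin on the right. Points are differences of means of 2 arrays and bars are moderated standard errors; Cyr61, Cnn2 and Tpm1 lie between 1.94 and 3.07 on the left, Ctgf lies at -1.51 and -1.30, and Tagln lies farthest below 0 on the right.

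To set the members beside their pathway, 121 other genes in 6 lists were tested with limma, each by its brightest probe, and p-values were adjusted over all 14050 probes. Of 105 on the array, 85 could be tested. After Activin 43 of the 85 rose and 26 fell, beside 36.2% and 36.9% of all 10222 genes. After Nodal 41 rose and 26 fell, beside 36.5% and 37.1%. The median log2 difference of the listed genes was 0.25 for Activin and 0.23 for Nodal, with -0.02 and -0.01 over all genes.

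Of 25 tested actin filament genes, 14 rose and 4 fell after Activin, beside 36.2% and 36.9% of all genes. After Nodal 14 rose and 5 fell, beside 36.5% and 37.1%, and the list medians were 0.58 and 0.56. Acta1, the skeletal muscle alpha-actin, rose by a log2 value of 2.77 (SE 0.114, adjusted p = 2.58e-08) after Activin and 2.50 after Nodal. Csrp1, a LIM protein that binds the actin cross-linker alpha-actinin, rose by 2.76 and 2.46, and the tropomyosin Tpm4 by 2.23 and 2.40. Cald1 (caldesmon) rose by 1.61 and 2.10. Actc1, the cardiac alpha-actin, was detected on no undifferentiated array and was at least 2.03-fold higher after Activin (adjusted p = 3.72e-07) and at least 2.76-fold after Nodal. Actg2, the enteric smooth muscle actin, went the opposite way: detected on both undifferentiated arrays at a mean log2 signal of 8.16 and on no treated array, Actg2 was at least 8.77-fold lower after Activin (adjusted p = 1.35e-09) and at least 8.88-fold lower after Nodal. The others that fell were Tagln3, Actn4 and Cfl2 after Activin and Tagln3, Actn4, Cfl1 and Msn after Nodal, named after their values were seen. Cfl2 passed in 4 of 14 other settings, with another probe in disagreement, and Cfl1 in 9.

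Among 13 tested genes of myosin II and its regulators, 8 rose and 3 fell after Activin, beside 36.2% and 36.9% of all genes. After Nodal 8 rose and 2 fell, beside 36.5% and 37.1%, and the list medians were 0.42 and 0.35. The non-muscle heavy chains rose, Myh9 by log2 values of 2.03 (SE 0.0914, adjusted p = 4.66e-08) and 1.93 and Myh10 by 1.17 and 0.96. The essential light chain Myl6 rose by 1.10 and 0.85. Myl4, the atrial and embryonic essential light chain, fell by 4.33 (SE 0.144, adjusted p = 6.05e-09) after Activin and fell by 3.36 after Nodal. Ppp1cb, a catalytic subunit of myosin phosphatase, also fell in both and was named after its values were seen. Myh11 and Mylk were not tested, being detected on fewer than 2 arrays.

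**Figure D4:**
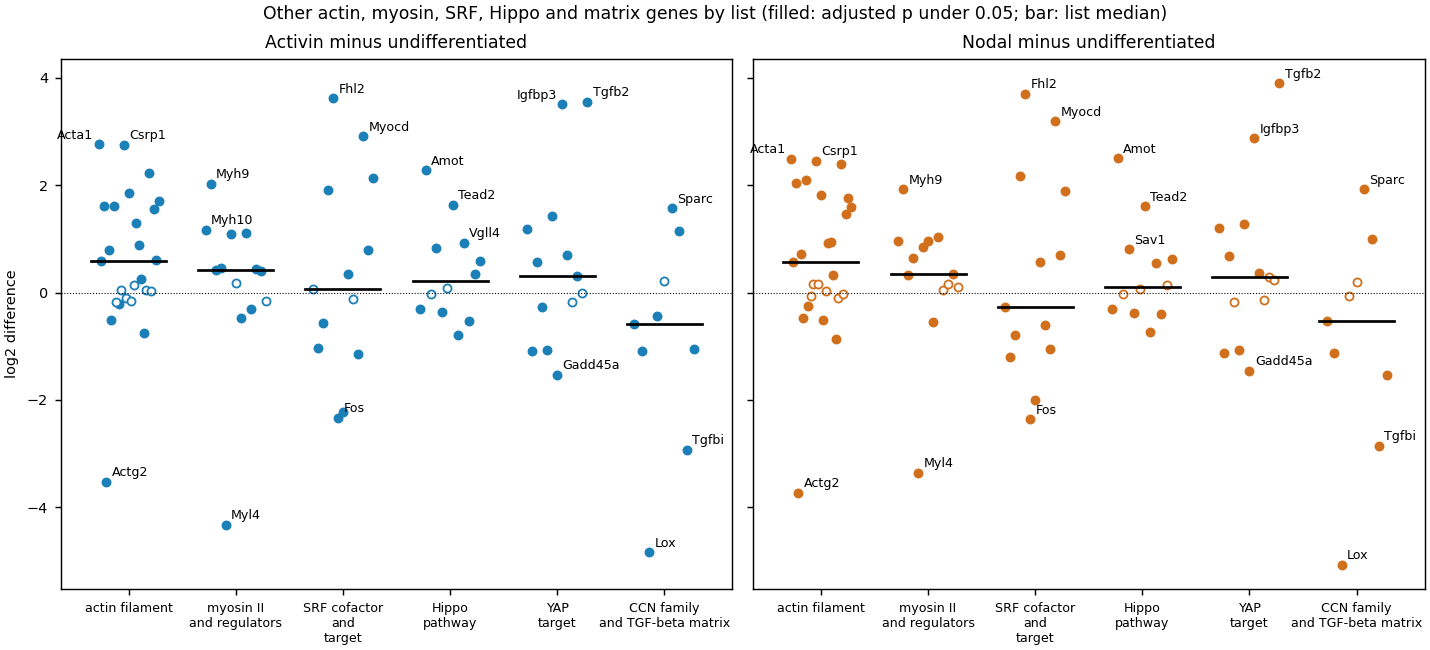
Log2 differences (y axis) of the 85 tested genes in the 6 lists (x axis), for Activin and for Nodal, each minus undifferentiated cells. Each point is 1 gene, filled where the adjusted p was under 0.05, and bars are list medians; actin filament genes have medians of 0.58 and 0.56, while the matrix list has -0.58 and -0.52. Genes undetected in a group (such as Lox, Actg2, Myocd and Amot) are drawn at their fitted value.

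SRF itself and its cofactors were mixed. Srf rose by log2 values of 0.79 (SE 0.0983, adjusted p = 5.58e-05) and 0.69 on its brightest probe, with 1 other probe in disagreement. With a minimum fold of 1.5, Srf passed in neither comparison. Myocd, the myocardin cofactor of heart and smooth muscle, was detected on no undifferentiated array and was at least 5.52-fold higher after Activin (adjusted p = 4.76e-09) and at least 6.72-fold after Nodal, with 1 other probe in disagreement for Activin. Mrtfa and Mrtfb could not be tested. Over all 13 tested genes of this list, 6 rose and 5 fell after Activin, beside 36.2% and 36.9% of all genes. After Nodal 6 rose and 7 fell, beside 36.5% and 37.1%. The LIM genes Fhl2 and Fhl1 rose, Fhl2 by 3.63 (SE 0.0912, adjusted p = 1.09e-09) and 3.71 and Fhl1 by 1.91 and 2.18, and the focal adhesion gene Tgfb1i1 (Hic-5) rose by 2.14 and 1.89. The immediate early genes Fos and Fosb, which SRF drives with ternary complex factors, fell by 2.33 and 2.24 after Activin and by 2.37 and 2.00 after Nodal. The others that fell after Activin were Egr2, Mcl1 and Elk3, named after their values were seen. List medians were 0.07 and -0.28.

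In the Hippo list, which holds YAP, TAZ, TEAD factors and the kinases that restrain them, 6 of 12 tested genes rose and 4 fell after Activin, and 5 rose and 4 fell after Nodal. Over all genes these shares were 36.2% and 36.9% for Activin and 36.5% and 37.1% for Nodal. Yap1 rose by log2 values of 0.58 (SE 0.0855, adjusted p = 0.000175) and 0.63. Wwtr1, which encodes TAZ, rose by 0.34 after Activin and differed by 0.14 after Nodal (adjusted p = 0.184), although it passed there with median scaling. Another probe of Wwtr1 disagreed for Nodal. Of the TEAD genes, Tead2 rose by 1.63 and 1.61, Tead4 fell by 0.79 and 0.74, and Tead1 and Tead3 were not detected well enough to be tested. Amot (angiomotin), which holds YAP in the cytoplasm, was detected on no undifferentiated array and was at least 3.89-fold higher after Activin (adjusted p = 5.14e-08) and at least 4.54-fold after Nodal. Sav1, a scaffold of the Hippo kinases, rose by 0.82 and 0.81, and Vgll4, a TEAD-binding antagonist of YAP, by 0.92 and 0.55. Stk3, Wwc1 and Ajuba also fell in both, named after their values were seen, and Ajuba passed in 6 of 13 other settings for Activin and 5 for Nodal. Stk3 did not pass with median scaling, and another probe of Wwc1 disagreed with its brightest one. With a minimum fold of 1.5, Yap1, Wwtr1, Tead4, Vgll4, Stk3 and Wwc1 passed in neither comparison.

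Other reported YAP targets were called in both directions, as genes over the whole array were. Of 13 tested, 7 rose and 4 fell after Activin, beside 36.2% and 36.9% of all genes. After Nodal 6 rose and 3 fell, beside 36.5% and 37.1%, and the list medians were 0.31 and 0.28. Tgfb2, a secreted TGF-beta ligand, rose by log2 values of 3.56 (SE 0.142, adjusted p = 2.1e-08) and 3.90, and Igfbp3, a carrier of insulin-like growth factors, by 3.51 and 2.88. Fjx1 rose by 1.43 and 1.29 and the angiomotin relative Amotl2 by 1.19 and 1.20. Against these, Ankrd1, a further textbook YAP target, fell by 1.09 (SE 0.1, adjusted p = 6.94e-06) and 1.13, and the stress gene Gadd45a by 1.53 and 1.46. Ccdc80 fell in both comparisons and Axl fell after Activin, named after their values were seen. Axl passed in 7 of 14 other settings, a count that leaves out the minimum fold of 1.5, where Axl failed.

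Of 9 tested CCN relatives and TGF-beta-responsive matrix genes, 6 fell after Activin and 5 after Nodal, beside 36.9% and 37.1% of all genes, with 2 rising in each and medians of -0.58 and -0.52. Lox, the lysyl oxidase that cross-links collagen and elastin, was detected on both undifferentiated arrays and on no treated array, at least 22.0-fold lower after Activin (adjusted p = 1.88e-09) and 22.3-fold lower after Nodal. Tgfbi fell by 2.93 after Activin and fell by 2.86 after Nodal on the log2 scale, and the matricellular gene Thbs1 by 1.05 and 1.53. Of the CCN genes, Ccn5 was at least 1.45-fold lower after Activin (adjusted p = 8.46e-06) and at least 1.47-fold after Nodal, and Ccn4 fell by 0.58 and 0.52. Sparc, a collagen-binding protein also on the parietal endoderm list, rose by 1.57 and 1.93, and Tgfb1 by 1.15 and 1.00. The fibroblast marker sums given above moved with the lower genes, and their part was not tested.

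Between the treatments, 3 of the 85 listed genes were higher after Nodal and 1 was lower, beside 1.25% and 1.04% of all genes. Vil1 (villin), an actin bundler of epithelial microvilli, was higher after Nodal by a log2 value of 1.15 (SE 0.086, limma adjusted p = 0.000428) and is named after its values were seen. Myl4 was higher by 0.97 (adjusted p = 0.0128) and Myl7, the atrial regulatory light chain, by 0.78 (adjusted p = 0.0316), with 1 cardiac marker, Myl7 itself, higher in that list. Igfbp3 was lower by a difference of -0.63 (adjusted p = 0.0128). Without the second Activin array the adjusted p was 0.0969 for Myl4, 0.182 for Myl7 and 0.0857 for Igfbp3, and without the first Nodal array it was 0.0749, 0.0615 and 0.098. Without the second Nodal array it was 0.202 for Myl7 and 0.0781 for Igfbp3, while the Vil1 call passed without any 1 array.

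The genes whose pattern over the 6 arrays was most like that of a member were found by the root mean square (RMS) difference of centred log2 signals. For Tagln these were Gng2 (RMS 0.127), Ptn (0.141), Cyp1b1 (0.143) and Psmb10 (0.155). The log2 difference of Nodal from undifferentiated cells was -0.82 for Gng2 and -0.84 for Ptn, and that of Nodal from Activin was -0.56 and -0.43. For Cyr61 probe ILMN_2794645 they were App (0.0729), Mycl (0.0926), Sccpdh (0.104) and Lamb3 (0.114). App had log2 differences of 2.98 and 2.87 after Activin and Nodal, and Lamb3 had 3.16 in both. These are descriptions over arrays that share 3 conditions.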

How the data were processed

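Per the file headers, the authors deposited an intensity, neither normalized nor background-subtracted, and a detection p-value for each of 25697 probes on 6 arrays. The authors' averages of replicates, a second deposited intensity table, had medians of 19.1 to 19.3 and rank as the mean signal does, but how they were corrected is not stated. They served as an alternative for member probes. Array model and scanner software: not given in the sources used here. Median signals per array were 55.2 to 60.8 and 49.3% to 50.6% of probes were detected. With 2 arrays a group, their number limits the precision.

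Signals were background-corrected from the detection p-values (normal-exponential model, offset 16), quantile-normalized and log2-transformed with limma 3.58.1 in R 4.3.3. Probes with a detection p-value under 0.05 on at least 2 arrays (14050) entered 1 linear model with 3 groups and moderated two-sided tests, adjusted by Benjamini-Hochberg. A gene undetected throughout a group has a fold that is a bound, from the lowest signal of detected probes. Listed genes were read by their brightest tested probe. File symbols were updated through RefSeq (GRCm38.p6), 7082 probes in all. The fit was tested on simulated data. A few list genes, counted with their list, are not reported here. Members and lists were chosen with earlier results of these data known. From each list, up to 6 called genes with the largest difference in any contrast were named, with Srf, its cofactors, Yap1, Wwtr1 and the Tead genes whatever their result, and 4 genes most like Tagln and Cyr61.

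Other settings were median scaling or cyclic loess in place of quantiles, an offset of 50 or uncorrected signals, no filter or a detection p-value under 0.01, 1 probe or the mean of probes per gene, a replicate block, a minimum fold of 1.5, each array left out, and the authors' averages.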

Additional observations from a re-analysis of the deposited data

How the results depend on the processing

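Each comparison rests on 2 arrays a group. Of 468 recomputed member differences, 65 moved by more than the spread between arrays, and 9 changed sign, all for Acta2 after Activin or for Cyr61 probe ILMN_2794645 between treatments. Member probes at least 2-fold apart numbered 7 for Activin (7 or 8 over the alternatives), 8 for Nodal (7 or 8) and 0 between treatments. A minimum fold of 1.5 lowered the probes called from 10187 to 4545 for Activin and from 10293 to 4696 for Nodal, and the listed genes called from 69 to 40 and from 67 to 43. Leaving out 1 array gave 8635 to 9993 and 8815 to 10349 probes, and 59 to 67 listed genes in each.

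For Nodal against Activin 290 probes were called. This became 522 without background correction, 519 with an offset of 50, 74 without a filter and 8 with a minimum fold of 1.5. It was 54 to 260 with 1 array left out: 162 and 66 without the first or second Activin array, and 54 and 58 without the first or second Nodal array. The 4 listed genes called became 10 without background correction or with an offset of 50, 7 with median scaling, 2 without a filter and 0 with a minimum fold of 1.5, and 1 to 4 with 1 array left out: 1 without the second Activin or the first Nodal array, and 2 without the second Nodal array. The cause of these changes was not tested. By design, leaving out an array lowers the number of arrays, and dropping the filter raises the number of probes tested. With the replicate number as a block the counts were 10257, 10358 and 299 probes. Same-numbered arrays deviated with correlations of 0.0973, 0.0013 and 0.0321 over the tested probes. Such low values cannot exclude a shared culture or batch, and the labels give only a shared number. Signals near background limit Tagln, Cnn2 probe ILMN_2596369 and Cyr61 probe ILMN_2710253 in undifferentiated cells, and the undetected probes of Cnn1 and Tpm2.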
